A study of Mus musculus with 18 samples.

Results

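The comparison set HXP libraries against MI libraries of mouse heart above a common limit of scar matrix RNA. The limit sets a floor and does not match the levels, which still ranged from 185 to 668 FPKM of Col1a1. Members were chosen by a measured value and were the libraries labelled HXP or MI in which Col1a1, the gene of the alpha 1 chain of collagen type I, was at 100 FPKM or more, where FPKM is reads per exon length and library size. The rule took 8 of the 18 libraries, HXP 1, HXP 2 and HXP 3 against MI 1 to MI 5. All genes in these 8 libraries were compared. It asks what differs with HXP among libraries that all hold much matrix RNA.

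Total RNA of mouse heart tissue, was extracted with Trizol and freed of ribosomal RNA before 18 libraries were sequenced. The 6 control libraries came from control mice, the 6 MI libraries from mice with myocardial infarction, and the 6 HXP libraries from HXP-treated mice, a treatment that the series title places in the acute infarction model. What HXP stands for, its dose, the times of infarction, treatment and collection, and the age, sex and strain of the mice are not stated by the labels. Nor do they say that each HXP mouse had an infarct or which region of the heart was taken. The design counts 6 mice per group, but no label ties a library to a mouse, so p-values rest on the spread between libraries.

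After an infarct, dead heart muscle is replaced by scar, in which activated fibroblasts lay down collagens, fibronectin and crosslinking enzymes. How much scar a piece of heart holds therefore sets many transcripts at once, and Col1a1 is a common readout of it. Heart muscle also runs a circadian clock, in which the activators Arntl and Clock drive the Per, Cry and Nr1d genes and the transcription factors Dbp, Tef and Hlf, and are repressed by several of these products in turn. Chemokines such as Ccl21 draw leukocytes into tissue and towards lymphatic vessels.

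The 8 libraries held 75.8 to 77.7 M reads each, as recovered from the steps of their FPKM values. All 8 were rich in heart muscle RNA, with Myh6, the main adult cardiac myosin of mice, between 1504 and 3787 FPKM. MI 5 also held RNA of lung epithelium and MI 4 RNA of skeletal muscle. Library numbers given in the headers were split here at their wide gaps into 3 runs, which no label names as batches. MI 5 was in the first, HXP 1 and HXP 3 in the second, and HXP 2 with MI 1 to MI 4 in the last. Only the last run held libraries of both groups, so run and group can be told apart only through HXP 2. MI 1 and MI 2 were the most alike pair, but differed by more than sampling noise (chi-square per degree of freedom 16.4, against 44.0 for the next closest pair with MI 1). That cannot tell separate mice from separate preparations of 1 heart. All 8 were counted as separate.

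Col1a1 itself is described and not tested, since it chose the libraries. It stood at 185, 186 and 345 FPKM in HXP 1, HXP 2 and HXP 3, and at 188, 210, 284, 228 and 668 FPKM in MI 1 to MI 5. The ranges of both groups overlapped, MI 5 stood above all other libraries, and the 6 controls lay between 9.25 and 16.7 FPKM. The lowest above the limit were HXP 1 at 185, HXP 2 at 186 and MI 1 at 188 FPKM. The highest HXP or MI libraries below it were MI 6 at 74.1 and HXP 4 at 50.7 FPKM, followed by HXP 5 at 41.3 and HXP 6 at 2.29 FPKM. No library lay between 74.1 and 185 FPKM.

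Other matrix genes followed Col1a1 and overlapped between the groups as well. Postn, which encodes the matricellular protein periostin, was at 46.0, 74.1 and 177 FPKM in HXP 1 to HXP 3 and at 81.9, 74.5, 75.7, 94.0 and 184 FPKM in MI 1 to MI 5. Lox, whose enzyme crosslinks collagen, was at 10.4, 29.4 and 40.7 FPKM in HXP 1 to HXP 3 and at 38.5, 45.8, 24.9, 26.7 and 67.5 FPKM in MI 1 to MI 5. HXP 1 was the lowest of the 8 libraries for both, although its Col1a1 was close to that of HXP 2 and MI 1. Comp, encoding cartilage oligomeric matrix protein, showed this most, at 51.5 FPKM in HXP 1 against 185 and 361 FPKM in HXP 2 and HXP 3 and 173 to 574 FPKM in MI 1 to MI 5. The summed level of the 40 matrix genes listed was 2415, 3869 and 7118 FPKM in HXP 1 to HXP 3 and 3689 to 8242 FPKM in MI 1 to MI 5. Of the 40, 7 had a fitted difference above 0 (HXP minus MI), and the median difference was −0.23 on the log2(FPKM + 1) scale, on which all differences below are given. The 14 fibroblast markers had a median difference of 0.12, with 11 above 0.

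**Figure D1:**
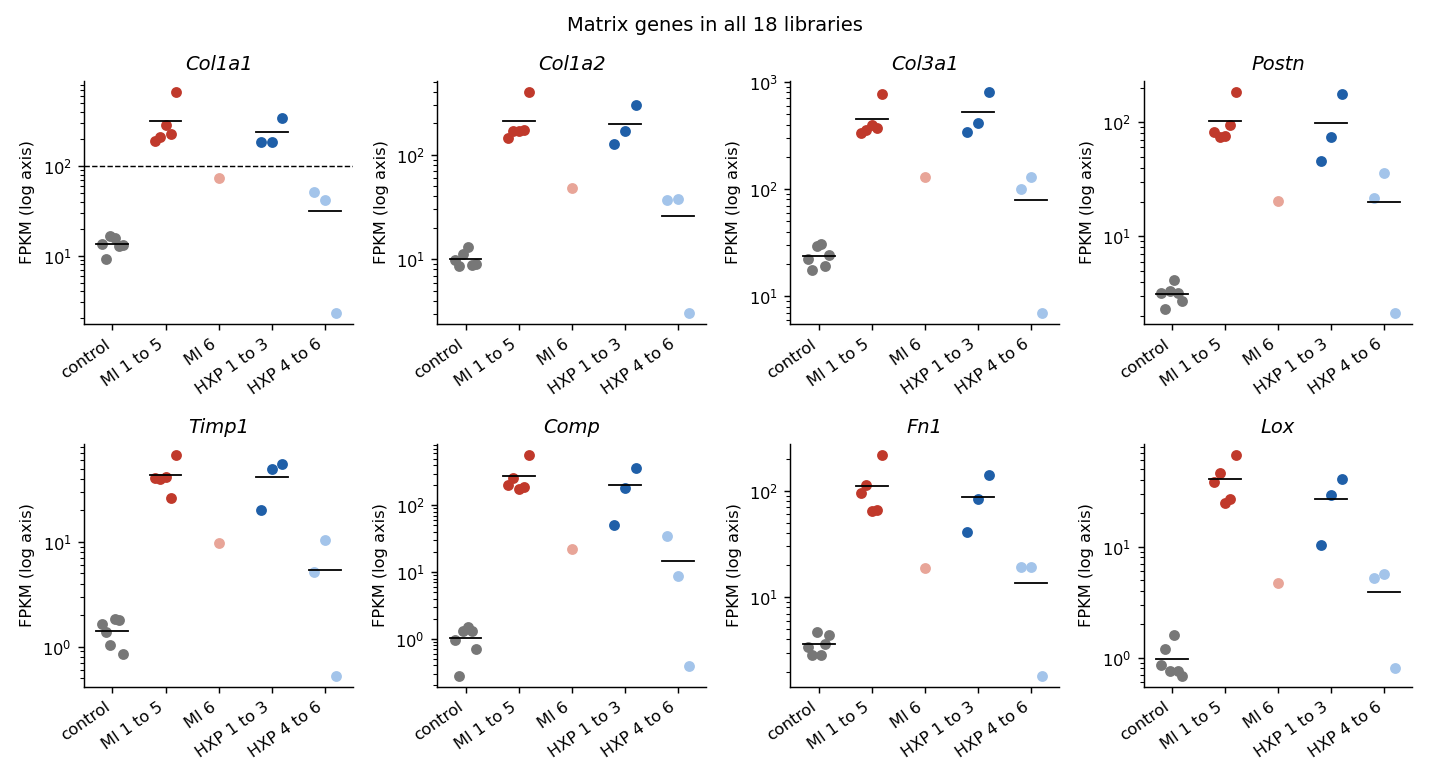
Level in FPKM (log axis) of 8 matrix genes in all 18 libraries, with 1 point per library, a bar at the mean of each set of more than 1 library, and a dashed line at the limit of 100 FPKM of Col1a1. The 3 HXP and 5 MI libraries taken overlap in every panel, and MI 6 and HXP 4 to HXP 6 lie below the line.

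Of 14287 genes that averaged 0.5 FPKM or more in the 8 libraries, 2 were higher in HXP by limma at a Benjamini-Hochberg adjusted p below 0.05 (0.014% of the genes tested). These were Gm13304, listed at 0 in all 5 MI libraries and a copy of the chemokine gene Ccl21, and C1d, which encodes a nuclear cofactor of the RNA exosome. Gm13304 had to differ from a group listed at 0, so its call is a description. C1d is the only call that rests on the test. No gene was called lower (0.0%), and 437 genes (3.06%) had an unadjusted p below 0.05 in either direction. voom on the recovered reads also called 2 genes. All 3 HXP libraries lay above all 5 MI libraries at 304 genes (2.13%) and below them at 111 (0.777%), and neither group of genes was tested as a set. That split depended on the scaling, with 252 above and 187 below after quantile normalization and 232 above and 195 below after median-ratio scaling. A GC correction gave 224 above and 216 below.

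The number of called genes rested on single libraries. Without HXP 1, the library with the lowest matrix sum, 15 genes were called, 9 higher and 6 lower. Without HXP 3 there were 6 and without MI 3 there were 3, whereas without HXP 2 only 1 was left, Gm13304. When HXP 4 was admitted with MI 6, at a limit of 50 FPKM, no gene was called (413 at an unadjusted p below 0.05), and the same held for all 6 HXP against all 6 MI libraries (1084 at an unadjusted p below 0.05).

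Among the chemokines, Ccl21 has several near-identical copies in mice. Its protein, which binds the receptor Ccr7, guides dendritic cells and T cells and is made by lymphatic endothelium. Gm13304 (ENSMUSG00000073878, chr4:42114817-42115917, plus strand, GRCm38) was at 22.9, 33.7 and 34.6 FPKM in HXP 1, HXP 2 and HXP 3. It was listed at 0 in the other 15 libraries, those of control, MI and HXP 4 to HXP 6 included. It passed the filter on low values only through the 3 HXP libraries, and against a group listed at 0 throughout, with no spread, it had to differ. Its call is therefore a description, and no p or fold is given. Every stretch of 31 bases of its transcripts occurs also in the copy Gm21541, and 82.8% of them in Ccl21a, so a read from one copy can be counted for another. The promoters of Ccl21a and Gm13304, 250 bases before to 50 after the start (RefSeq, GRCm38.p6), are shown because they bear on how alike the copies are. Capitals mark the columns at which the 2 windows differ once aligned, 5 of 301, with 98.3% identity. The first base of Ccl21a and the last of Gm13304 are unpaired ends of windows offset by 1 base, and the other 3 columns are substitutions. Ccl21a lies at chr4:42773942-42774241 on the minus strand and Gm13304 at chr4:42114537-42114836 on the plus strand.
Ccl21a: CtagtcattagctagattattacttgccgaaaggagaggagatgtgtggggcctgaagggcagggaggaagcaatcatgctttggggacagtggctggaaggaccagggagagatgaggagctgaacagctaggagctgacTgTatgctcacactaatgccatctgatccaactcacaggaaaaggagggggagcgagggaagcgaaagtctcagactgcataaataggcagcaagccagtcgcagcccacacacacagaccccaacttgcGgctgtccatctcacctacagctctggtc
Gm13304: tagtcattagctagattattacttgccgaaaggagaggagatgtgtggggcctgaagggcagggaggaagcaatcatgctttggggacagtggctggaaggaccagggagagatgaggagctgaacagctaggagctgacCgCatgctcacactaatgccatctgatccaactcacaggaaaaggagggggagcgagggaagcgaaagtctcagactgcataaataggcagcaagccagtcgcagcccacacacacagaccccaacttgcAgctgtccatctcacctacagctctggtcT

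The other copies named here also lay higher in HXP 1 to HXP 3, without passing the test. Gm10591, whose promoter window is identical to that of Gm13304, was at 39.2, 51.9 and 48.4 FPKM in HXP 1 to HXP 3 and at 16.7, 12.9, 27.8, 14.96 and 16.8 FPKM in MI 1 to MI 5. Its difference was 1.37 ± 0.22 (SE), with an adjusted p of 0.70 by limma, and only when MI 3 was left out did it pass, at 0.035. Ccl21a was at 34.5, 71.1 and 40.1 FPKM in HXP 1 to HXP 3 and at 25.3, 26.9, 20.9 and 24.4 FPKM in MI 1, MI 3, MI 4 and MI 5, while it was listed at 0 in MI 2. Ccl21b, on an unplaced scaffold, was at 13.2, 21.1 and 22.4 FPKM in HXP and at 6.01 to 11.4 FPKM in MI (difference 1.18), and Gm21541 at 3.27 to 8.30 against 0.53 to 2.19 FPKM (difference 1.52). The groups did not overlap at any of the copies named, although the copies share reads and are not independent. Further IDs of Ccl21 copies enter the sum below and are not given singly.

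The copies were also summed, since reads can move between them. Over 8 IDs of Ccl21 copies, a set chosen after their values were seen, the recovered reads per M were 108, 175 and 157 in HXP 1 to HXP 3 and 55.8, 39.7, 66.9, 46.6 and 54.7 in MI 1 to MI 5. All 3 HXP libraries lay above all 5 MI libraries, and the controls, at 8.74 to 19.95, lay below both. The difference of the mean log2(reads per M + 1) was 1.45, with means of 146 ± 34.5 (SD, n = 3) against 52.7 ± 10.3 (SD, n = 5) reads per M. No test of the sum is given, since its copies were chosen after their values were seen. MI 6, at 22.5, and HXP 4, HXP 5 and HXP 6, at 27.0, 61.4 and 7.42, lay within or below the range of MI 1 to MI 5. Gm13304 took 16.1% to 18.5% of the sum in HXP 1 to HXP 3 and the other copies the rest. Reads that map to several copies may have been counted more than once by the authors' tool, which is not given in the sources used here.

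C1d (ENSMUSG00000000581, chr11:17257579-17269176, plus strand) was at 8.21, 9.50 and 9.83 FPKM in HXP 1 to HXP 3 and at 3.20, 3.44, 3.35, 3.47 and 3.85 FPKM in MI 1 to MI 5. The groups were 9.18 ± 0.86 (SD, n = 3) and 3.46 ± 0.24 (SD, n = 5) and did not overlap. The difference was 1.19 ± 0.10 (SE), with an adjusted p of 0.0058 by limma. The controls themselves fell into a low and a high set, with 2.83, 3.10 and 3.04 FPKM in control 1, 4 and 6 and 6.63, 7.71 and 5.54 FPKM in control 2, 3 and 5, a spread that neither group of the 8 libraries shows. With the controls in the fit the difference was again 1.19, with an adjusted p of 0.28, and with the run of library numbers as a covariate it was 1.27, with an adjusted p of 0.34. HXP 6, at 6.44 FPKM, lay between the levels, and HXP 4 and HXP 5, at 2.73 and 3.45 FPKM, were at the MI level. Without HXP 2 the difference was 1.17 (adjusted p = 0.064), and within the last run, HXP 2 against MI 1 to MI 4 with the spread taken from the MI libraries, it was 1.27 (adjusted p = 0.057).

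**Figure D2:**
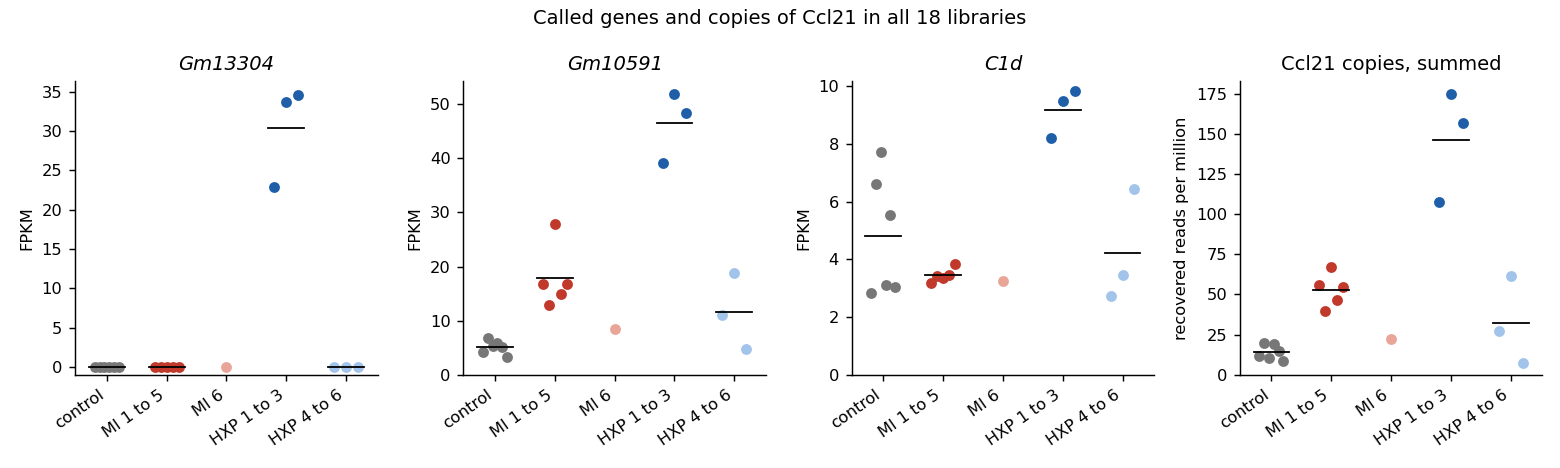
Level of Gm13304, Gm10591 and C1d (FPKM) and of the summed Ccl21 copies (recovered reads per M) in all 18 libraries, with 1 point per library and a bar at the mean of each set of more than 1 library. Gm13304 is above 0 only in HXP 1 to HXP 3, and C1d at 8.21 to 9.83 FPKM in these lies above all controls.

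Among the other genes with the smallest p that were higher in HXP, none passed the adjusted test. Amigo1, which encodes a cell adhesion protein of neurons, was at 4.47, 4.14 and 3.14 FPKM in HXP 1 to HXP 3 and at 1.13 to 2.12 FPKM in MI 1 to MI 5 (difference 0.96 ± 0.15, SE, adjusted p = 0.70). Matr3, which encodes the nuclear matrix protein matrin 3, was at 10.7 to 12.2 FPKM in HXP and at 7.29 to 8.52 FPKM in MI (difference 0.44). Col6a6, a collagen type VI chain, was at 2.004 to 2.41 FPKM in HXP and at 0.78 to 1.39 FPKM in MI (difference 0.61). The groups did not overlap at any of these, and Amigo1 also split among the controls, at 1.07 to 1.68 FPKM in control 1, 2 and 4 and at 3.73 to 4.27 FPKM in control 3, 5 and 6. Inca1, which encodes an inhibitor of cyclin A1-bound kinase, was at 2.11 to 2.30 FPKM in HXP and at 1.28 to 1.54 FPKM in MI (difference 0.40), with controls of 1.59 to 2.42 FPKM on both sides of the HXP level. Amigo1 and Matr3 went the other way in the left-out libraries. HXP 4 to HXP 6 had 0.31 to 2.695 FPKM of Amigo1 against 4.61 in MI 6, and 7.20 to 9.10 FPKM of Matr3 against 9.66. Col6a6 overlapped there, at 0.74 to 1.91 against 1.35 FPKM. Inca1 kept its direction, at 1.84 to 2.84 against 1.75 FPKM.

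No gene was called lower, so the lower genes named are some of those with the smallest p. Amotl2, a junction protein of the Hippo pathway, was at 9.51, 9.63 and 8.08 FPKM in HXP 1 to HXP 3 and at 12.9 to 15.5 FPKM in MI 1 to MI 5 (difference −0.59 ± 0.10, SE, adjusted p = 0.87). Gpr146, a G protein-coupled receptor known for its effect on cholesterol in the liver, was at 2.34, 0.62 and 4.04 FPKM in HXP 1 to HXP 3, at 4.51 to 10.7 FPKM in MI 1 to MI 5 and at 2.96 to 12.5 FPKM in the controls (difference −1.55 ± 0.37, SE). It did not overlap between the groups, and stood at 0.34 to 0.60 FPKM in HXP 4 to HXP 6. Irx3, a homeobox gene of the cardiac conduction system, was at 2.43 to 4.12 FPKM in HXP and at 4.53 to 6.22 FPKM in MI (difference −0.67). Cldnd1, which encodes a membrane protein of the claudin domain family, was at 6.40 to 10.7 against 12.03 to 15.2 FPKM (difference −0.67), and Med28, a subunit of the Mediator complex, at 2.63 to 3.45 against 4.204 to 6.39 FPKM (difference −0.53). The controls of Irx3 and Cldnd1, at 2.61 to 11.7 and 7.49 to 13.5 FPKM, covered levels of both groups. Cipc, whose protein interacts with Clock, was at 3.33, 0.97 and 4.15 FPKM in HXP and at 5.71 to 10.7 FPKM in MI, but ranged from 0.93 to 11.1 FPKM among the controls. In the left-out libraries Cipc went the other way, at 12.04, 10.96 and 8.73 FPKM in HXP 4 to HXP 6 and 1.52 FPKM in MI 6. Irx3 overlapped there, while Amotl2, Cldnd1 and Med28 lay lower in HXP 4 to HXP 6 than in MI 6. Sumo2, which encodes a ubiquitin-like modifier, shares up to 14.3% of its 31-base stretches with single pseudogenes and is uncertain. It was at 13.1, 2.86 and 3.38 FPKM in HXP and at 13.1 to 21.7 FPKM in MI, and was called only when HXP 1 was left out (difference −2.12, adjusted p = 0.0080 by limma). HXP 4 to HXP 6 had 30.75, 11.78 and 35.2 FPKM of Sumo2, on both sides of MI 6 at 23.29 FPKM.

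The circadian clock was the list with the most genes past the unadjusted threshold. Of its 19 genes tested, 10 had an unadjusted p below 0.05 (3.06% of all genes did), 15 had a difference above 0, and the median was 0.28 against 0.05 over all genes tested. None was called at an adjusted p below 0.05. The genes were read by their place in the loop, output factors first.

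Tef, Dbp and Hlf encode activators of the D-box, and Nfil3 a repressor at the same element. Tef was at 26.2, 20.2 and 30.7 FPKM in HXP 1 to HXP 3 and at 11.98, 17.6, 13.1, 4.90 and 6.59 FPKM in MI 1 to MI 5 (difference 1.28 ± 0.36, SE, unadjusted p = 0.0066, adjusted p = 1.00 by limma). All 3 HXP libraries lay above all 5 MI libraries, and the controls lay between 11.6 and 19.8 FPKM. Hlf was at 4.40, 3.66 and 5.52 FPKM in HXP and at 2.08, 3.29, 2.46, 2.23 and 2.37 FPKM in MI (difference 0.66 ± 0.15), again without overlap. Dbp overlapped, at 39.2, 26.5 and 42.7 FPKM in HXP and at 13.3 to 30.7 FPKM in MI (difference 0.78). Nfil3 was the only clock gene with all HXP below all MI libraries, at 2.56 to 3.04 against 3.16 to 4.77 FPKM (difference −0.31).

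The genes of the loop's repressors and activators came next, none of which passed the adjusted test. Per3 was at 5.82, 5.56 and 8.94 FPKM in HXP 1 to HXP 3 and at 3.41, 3.19, 3.25, 2.80 and 5.64 FPKM in MI 1 to MI 5 (difference 0.74 ± 0.21, SE), and overlapped only through MI 5. Per2 was at 6.68, 3.63 and 8.12 FPKM in HXP and at 2.06 to 5.09 FPKM in MI (difference 0.84), and here too the highest MI library was MI 5. Per1 overlapped, at 11.6 to 16.3 FPKM in HXP and 5.82 to 12.9 FPKM in MI (difference 0.51), as did Nr1d2, which encodes a repressor of Arntl, at 26.6 to 34.0 against 18.2 to 26.7 FPKM (difference 0.48). Both met the MI range only at MI 5. Cry2 did not overlap, at 5.74 to 7.77 against 4.59 to 5.66 FPKM (difference 0.29). Ciart, a repressor of Arntl and Clock, was at 3.54 to 4.78 FPKM in HXP and at 2.01 to 4.16 FPKM in MI (difference 0.43). Arntl was at 0.23, 1.19 and 0.50 FPKM in HXP and at 1.80, 1.99, 1.00, 1.75 and 0.91 FPKM in MI (difference −0.62). Npas2, which can take the place of Clock, had a difference of −0.23. Clock and Nr1d1 had differences of 0.0035 and −0.07.

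The promoters of Tef, Ciart and Per3 are shown to place the binding sites known for this loop beside the genes. E-boxes (CACGTG), bound by Arntl with Clock, and D-boxes (TTATGTAA or TTACGTAA), bound by Dbp, Tef, Hlf and Nfil3, were searched on both strands in windows of 300 bases. Among the 16 clock genes with a window, 5 held an E-box, against 7.24% of 27025 windows, and 1 held a D-box, against 1.06%. Capitals mark E-boxes in Tef (chr15:81802423-81802722, plus strand) and Ciart (chr3:95882179-95882478, minus strand) and D-boxes in Per3 (chr4:151044616-151044915, minus strand), all from RefSeq, GRCm38.p6.
Tef: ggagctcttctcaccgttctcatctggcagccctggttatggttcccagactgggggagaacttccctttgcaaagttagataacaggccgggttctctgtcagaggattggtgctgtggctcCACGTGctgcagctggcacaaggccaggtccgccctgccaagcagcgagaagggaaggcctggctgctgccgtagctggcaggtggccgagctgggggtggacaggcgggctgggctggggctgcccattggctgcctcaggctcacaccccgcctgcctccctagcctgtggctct
Ciart: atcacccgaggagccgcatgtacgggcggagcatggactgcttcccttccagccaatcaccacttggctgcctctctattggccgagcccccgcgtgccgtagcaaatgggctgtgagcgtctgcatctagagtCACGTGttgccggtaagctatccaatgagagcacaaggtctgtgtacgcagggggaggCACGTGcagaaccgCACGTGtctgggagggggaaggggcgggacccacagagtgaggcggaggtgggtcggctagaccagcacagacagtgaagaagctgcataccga
Per3: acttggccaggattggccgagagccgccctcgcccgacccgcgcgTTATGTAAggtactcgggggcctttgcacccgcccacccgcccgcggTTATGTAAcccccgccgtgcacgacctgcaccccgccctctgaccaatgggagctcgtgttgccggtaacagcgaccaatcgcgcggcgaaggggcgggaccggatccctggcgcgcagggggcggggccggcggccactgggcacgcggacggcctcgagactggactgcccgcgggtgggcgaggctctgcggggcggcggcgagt

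The clock count depended on the run and on 1 library. With the run as covariate, which rests on HXP 2 against MI 1 to MI 4, the clock list had 2 genes at an unadjusted p below 0.05 and a median of 0.19. Without HXP 3 it had 4. Times of collection are not known here, so a difference in time of day between the groups cannot be told apart from one of treatment.

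**Figure D3:**
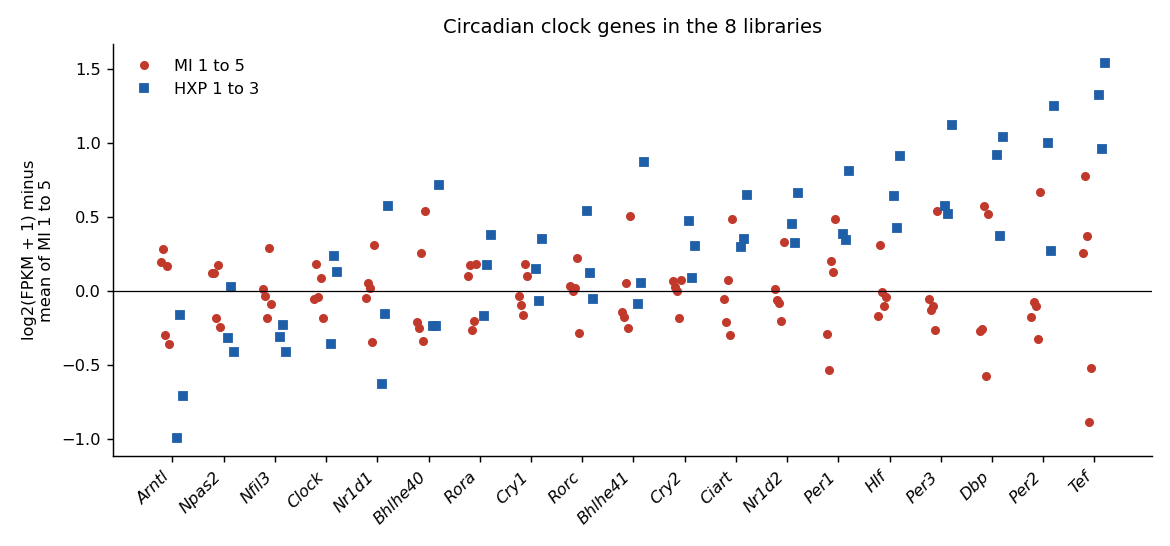
log2(FPKM + 1) of the 19 circadian clock genes in each of the 8 libraries, minus the mean of MI 1 to MI 5, ordered from Arntl to Tef (circles for MI, squares for HXP). The squares of Hlf, Cry2 and Tef lie above all circles, and those of Nfil3 below.

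Genes of glutathione use and of the NRF2 response, which detoxify reactive compounds, lay slightly higher in HXP 1 to HXP 3. Of 26 tested, 22 had a difference above 0 (64.2% of all genes tested did), the median was 0.19, 3 lay above without overlap (Gstm1, Gsta3 and Cat, where 2.13% of all genes did) and none was called. Gstm1, a glutathione transferase, was at 87.1, 92.0 and 102 FPKM in HXP 1 to HXP 3 and at 62.2, 69.3, 59.4, 70.1 and 63.7 FPKM in MI 1 to MI 5 (difference 0.52 ± 0.11, SE, adjusted p = 1.00 by limma). The HXP level lay in and just above the control range of 69.5 to 93.8 FPKM, and Gstm1 shares 22.6% of its 31-base stretches with a pseudogene. Gsta3 was at 1.30, 2.23 and 2.21 FPKM in HXP and at 0.94, 1.00, 0.92, 0.98 and 0.52 FPKM in MI (difference 0.63), with controls between 0.69 and 1.04 FPKM. The sensor pair Nfe2l2 and Keap1 overlapped between the groups, with differences of 0.27 and −0.05. Summed over the list, the groups overlapped too, at 1197 to 1305 FPKM in HXP 1 to HXP 3 and 954 to 1316 FPKM in MI 1 to MI 5. The left-out libraries lay lower, at 872, 899 and 906 FPKM in HXP 4 to HXP 6 and 948 FPKM in MI 6.

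Of 26 chemokine and cytokine genes tested, 24 had a difference above 0, against 64.2% of all genes, and the median was 0.36. Ccl7, Cxcl12 and Ccl21a lay above without overlap, against 2.13% of all genes, and none was called. Ccl7, which attracts monocytes, was at 3.68, 4.89 and 5.08 FPKM in HXP and at 2.69, 1.92, 3.47, 1.53 and 2.71 FPKM in MI (difference 0.70 ± 0.19, SE). Cxcl12, which attracts cells that carry Cxcr4, was at 20.4, 22.1 and 24.2 FPKM in HXP and at 15.3 to 18.9 FPKM in MI (difference 0.37), and its controls, at 15.7 to 23.0 FPKM, covered both. The inflammatory genes Il1b, Ccl2 and Spp1 overlapped between the groups, with differences of 0.22 ± 0.37, 0.37 ± 0.26 and 0.32 ± 0.63 (SE). The direction turned when all 6 HXP and all 6 MI libraries were compared, with a chemokine median of −0.12, where the median over all genes was also −0.12, and it reached 0.84 with the run as covariate.

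Genes of the heart's own stress program did not separate the groups among the 8 libraries. Nppa, which encodes atrial natriuretic peptide, was at 2161, 3715 and 7107 FPKM in HXP 1 to HXP 3 and at 3732, 3611, 8497, 2077 and 8139 FPKM in MI 1 to MI 5, so both groups ranged over the same levels, far above the 89.8 to 348 FPKM of the controls. Its difference was −0.24 ± 0.54 (SE). Myh7, the fetal myosin, was at 162 to 504 FPKM in HXP and 185 to 521 FPKM in MI. Nppb had a difference of −0.36 ± 0.33 (SE). In the stress and fetal list 5 of 11 genes were above 0, none had groups that did not overlap, and the median was −0.07. The libraries left out for low Col1a1 had less Nppa than any of the 8, at 999 FPKM in MI 6 and at 884, 1286 and 88.3 FPKM in HXP 4 to HXP 6. The likeness of the groups is thus described only for libraries above the Col1a1 limit.

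Medians of several metabolic and signalling lists lay near that of all genes. Fatty acid oxidation (26 genes), nuclear oxidative phosphorylation (30) and TGF-beta signalling (19) had medians of 0.03, 0.0036 and 0.03. Each was below 0 after quantile normalization, and every member overlapped between the groups. Both metabolic lists varied widely within HXP. Oxidative phosphorylation genes summed to 10580, 6620 and 4841 FPKM in HXP 1 to HXP 3 and to 5609 to 8546 FPKM in MI 1 to MI 5. Fatty acid oxidation genes summed to 6313, 4220 and 3141 FPKM in HXP and to 3522 to 5147 FPKM in MI. In both, HXP 1 lay above and HXP 3 below all of MI 1 to MI 5. Tgfb1 itself was at 3.95 to 7.04 FPKM in HXP and at 5.13 to 9.86 FPKM in MI (difference −0.37 ± 0.24, SE). Of 13 transcripts of the mitochondrial genome 1 had a difference above 0, and their median was −0.17; the other scalings gave −0.19, −0.23 and −0.22, and quantile normalization, which sets the most abundant values equal, left no difference. Of 24 immediate early genes, which stimuli switch on within minutes, 7 had a difference above 0 and the median was −0.14. Among them Egr2 was at 0.76, 1.46 and 0.80 FPKM in HXP and at 1.59, 1.47, 1.99, 1.12 and 3.49 FPKM in MI (difference −0.51), with an overlap through HXP 2 and MI 4. Dusp1, which encodes a phosphatase of MAP kinases, was at 13.3 to 16.4 against 14.4 to 21.5 FPKM (difference −0.33), and Fos and Egr1 overlapped widely. Of 34 Wnt genes 1 lay below all MI libraries, against 0.777% of all genes. This was the receptor gene Fzd8, at 1.91, 2.83 and 2.51 FPKM in HXP and at 3.30, 3.65, 3.46, 3.11 and 6.15 FPKM in MI (difference −0.51 ± 0.19, SE). Slbp, which encodes the protein that binds the stem-loop of histone mRNAs, was at 1.26 to 1.53 FPKM in HXP and at 1.78 to 2.12 FPKM in MI (difference −0.32). Egln3, an oxygen-sensing hydroxylase gene, was at 14.3 to 17.4 FPKM in HXP and at 18.1 to 25.3 FPKM in MI (difference −0.33). Slc40a1, the iron exporter gene ferroportin, was at 2.51 to 3.50 FPKM in HXP and 1.86 to 2.18 FPKM in MI (difference 0.36). Ces1d, a carboxylesterase gene active in adipose tissue, was at 38.3, 17.3 and 17.8 FPKM in HXP 1 to HXP 3 and 7.51 to 13.5 FPKM in MI (difference 1.12). Its controls, at 32.7 to 43.9 FPKM, lay above MI 1 to MI 5, and of the HXP libraries taken only HXP 1 reached them. None of these passed the adjusted test.

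**Figure D4:**
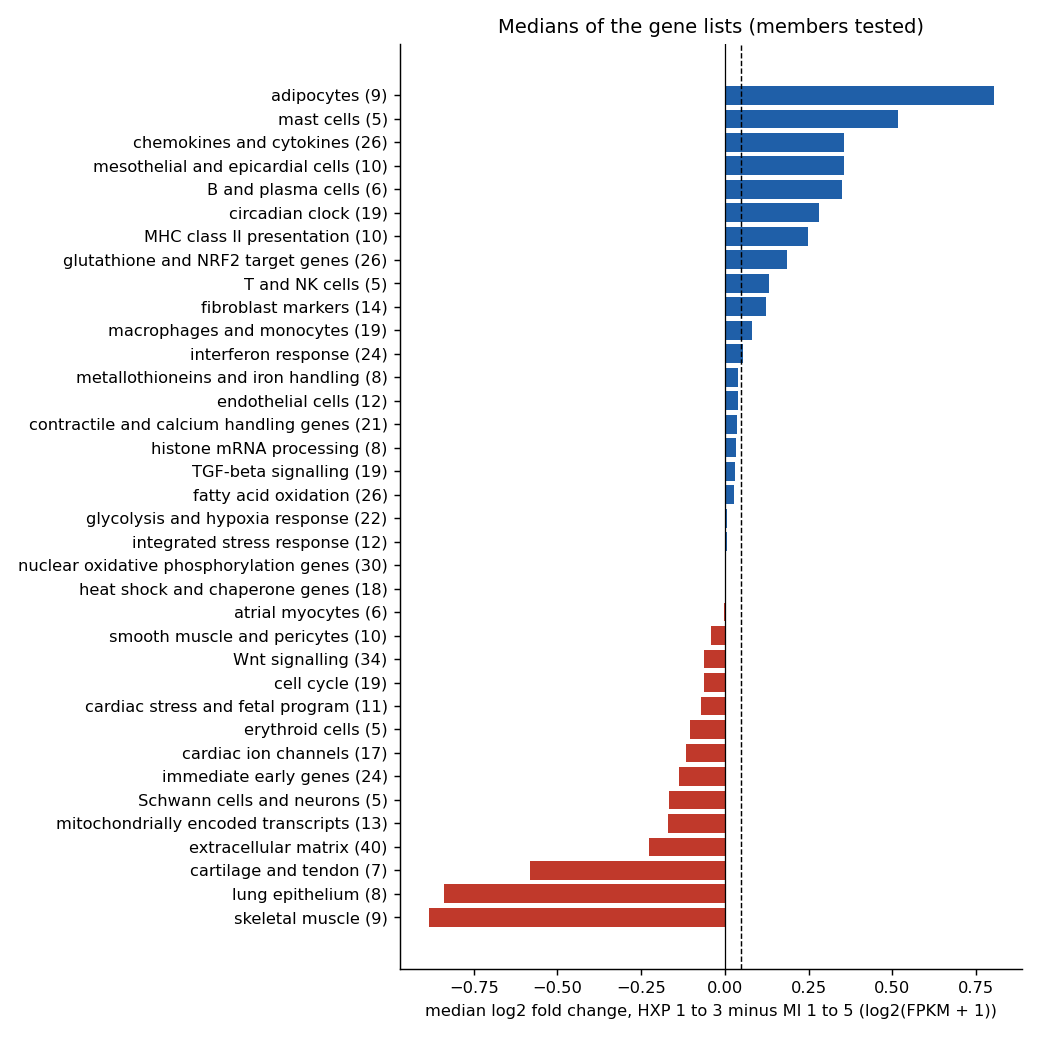
Median log2 fold change (HXP 1 to 3 minus MI 1 to 5, on log2(FPKM + 1)) of each gene list except neutrophils, with the number of members tested in brackets and a dashed line at the median of all genes tested, 0.05. The bars run from −0.88 for skeletal muscle to 0.80 for adipocytes. Those of skeletal muscle and lung epithelium each rest mainly on 1 MI library, named in the next paragraph, and do not describe MI as a group.

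Markers of other cell types stood apart in single libraries. In bulk tissue fewer cells of a type and less RNA per cell cannot be told apart. The 9 lung epithelium genes measured summed to 1191 FPKM in MI 5, where Sftpc, the gene of surfactant protein C, stood at 970 FPKM, and to 1.07 to 2.78 FPKM in the other 7 libraries. The skeletal muscle markers summed to 112 FPKM in MI 4, to 3.33 to 9.20 FPKM in the other MI libraries and to 2.19 to 2.82 FPKM in HXP. Their count below MI is not given, since they passed the filter on low values mainly through MI 4. Adipocyte markers summed to 20.8 FPKM in HXP 1 and 15.6 FPKM in MI 5, near the controls at 22.8 to 29.6 FPKM, and to 698 and 654 FPKM in HXP 2 and HXP 3, above the 53.4 to 468 FPKM of MI 1 to MI 4. Their part in the results above was not tested, except that MI 4 and MI 5 were left out together. Without them the only call was Gm13304, which is a description, and C1d had a difference of 1.23 with an adjusted p of 0.12 by limma. Markers of macrophages, T and NK cells, neutrophils and endothelial cells overlapped between the groups, with summed levels of 551 to 1107 FPKM in HXP and 480 to 1182 FPKM in MI for the macrophage list. B and plasma cell markers summed to 37.2 to 107 FPKM in HXP and 23.5 to 93.3 FPKM in MI, mast cell markers to 5.35 to 20.4 and 3.59 to 12.6 FPKM, and the 10 genes of MHC class II presentation to 498 to 1017 and 367 to 894 FPKM. All members tested of the B cell and mast cell lists and 9 of 10 MHC genes had a difference above 0, with medians of 0.35, 0.52 and 0.25, and each overlapped between the groups.

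**Figure D5:**
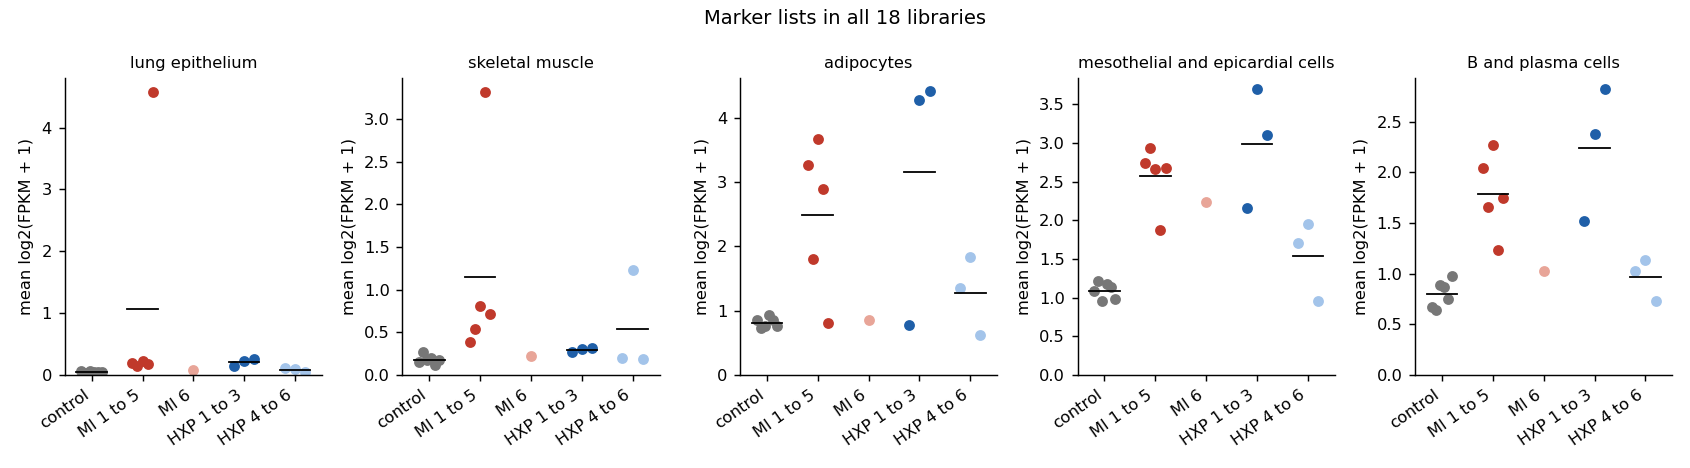
Mean log2(FPKM + 1) of 5 marker lists in all 18 libraries, with 1 point per library and a bar at the mean of each set of more than 1 library. MI 5 is alone at 4.57 for lung epithelium and MI 4 at 3.32 for skeletal muscle, and adipocyte markers vary within both groups.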

How the data were processed

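The authors deposited 18 tables, 1 per library, of values for 34150 Ensembl IDs. The deposited values are in FPKM, inferred from the values, since the file headers name no unit: multiplied by the exon length of the gene, 97.4% to 97.9% of 10314 to 12349 low values per library were whole multiples of 1 step, within 0.1 of a read. Per the submitters' processing notes the build was GRCm38 and limma was used; aligner, counting tool and their versions are not given there. GENCODE M21 matched 34097 IDs and left 53. The 18 libraries held 75.8 to 81.1 M recovered reads, so spread between libraries, rather than counting, limits precision except at the lowest values.

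Values of the 8 libraries were compared as log2(FPKM + 1) with limma 3.58.1 (R 4.3.3, with trend, two-sided, Benjamini-Hochberg over 14287 genes, a call below 0.05). Fold changes on this scale are compressed for genes near 1 FPKM. The libraries were chosen on a measured value, so p-values hold given that choice, and genes of the matrix and fibroblast lists are described without a test. Simulated data for this comparison over 14287 genes held noise that was independent between genes. Changes were set in 200 genes with a mean log2(FPKM + 1) above 1. Of these, 78.1% of log2 changes of 1 and 96.2% of log2 changes of 2 were called, with 4.63% false calls. Real libraries can deviate over many genes at once, which the simulation leaves out, so these shares do not measure what could be called in the real data.

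Named genes were 34 set genes, the 8 highest and 8 lowest called genes of at least 1 FPKM with a symbol that is not a predicted name (filled up by smallest p), up to 3 non-overlapping members of each program list, and 8 matrix genes. Gm13304, Gm10591, Gm21541 and the summed copies were added after their values were seen, as were list members given only as examples (Cry2, Ciart, Nfe2l2, Keap1, Clock and Sftpc). The members, the 37 gene lists and the tests were chosen with earlier results of these data known. Copies were found by shared stretches of 31 bases between GENCODE transcripts. Alternatives were other scalings, a GC correction, other filters, pseudocounts, priors and Col1a1 limits, Col1a1 or run as covariate, a replicate block and leaving out each library, and, chosen after seeing the data, voom on the recovered reads, leaving out MI 4 with MI 5, and the summed copies. Figures were drawn with matplotlib 3.10.9. Some genes that the rule names are not reported here.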

Additional observations from a re-analysis of the deposited data

Results flagged for a closer look

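A test for a single value far from the rest of its group was applied to the 5 MI libraries for 77 genes and marker lists, and 13 were marked, where chance alone marks about 1 in 20. MI 5 accounted for 9 of them. It was the highest MI library for Spp1, the gene of osteopontin, at 55.9 FPKM, and for the matrix genes Col1a2, Col3a1 and Postn, at 399, 773 and 184 FPKM. It was also the highest for Fzd8 at 6.15 FPKM, Per2 at 5.09 FPKM and Per3 at 5.64 FPKM, and the lowest for Gsta3 at 0.517 FPKM. Its lung epithelium markers had a mean log2(FPKM + 1) of 4.57.

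MI 4 was the highest MI library for skeletal muscle markers, with a mean log2(FPKM + 1) of 3.32, and the lowest for macrophage and monocyte markers at 3.23 and mesothelial and epicardial markers at 1.87. Ccl21a was listed at 0.0 FPKM in MI 2, far from the other MI libraries. The 3 HXP libraries are too few for this check.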

How the results depend on the processing

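The 2 called genes became 4 without a filter on low values and 6 within the last run of library numbers. They became 1 with the controls in the fit, with the run as covariate, or without MI 4 and MI 5, and 0 at a Col1a1 limit of 50 FPKM, for all 6 HXP and 6 MI libraries, and for these with Col1a1 as covariate. Leaving out 1 library gave 1 to 15. Gm13304, whose call is a description, is included in these counts and was lost in the 3 settings without a call. C1d was lost in 9, and its adjusted p ranged from 0.0012 to 1.00. Same-numbered libraries did not deviate together (r = −0.14, 0.10 and −0.08), and a replicate block, which uses only numbers 1 to 3, left 1 called gene.

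The 415 genes without overlap became 798 without a filter, 166 at a mean of 5 FPKM, 105 at a Col1a1 limit of 50 FPKM, 58 for 6 against 6 libraries, 6133 within the last run and 1215 without MI 4 and MI 5. Leaving out 1 library gave 506 to 2201. With fewer libraries in a group more genes fail to overlap by construction. The share above was 73.3% in the values reported and 50.9% after the GC correction.

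The direction turned for 14 named genes that were not called. With Col1a1 at 70 FPKM or more the differences were Nppa 0.13, Myh6 −0.056, Ankrd1 0.16 and Fos 0.069. For 6 against 6 libraries with Col1a1 as covariate they were Nppa 0.20, Myh6 −0.076 and Ankrd1 0.18. In the 8 libraries with that covariate they were Nppa 0.036, Myh6 −0.074, Ankrd1 0.085, Ccnd1 0.026 and Nr1d1 0.050. Quantile normalization gave Myh7 −0.066 and Ctnnb1 −0.017, non-mitochondrial scaling Myh7 −0.025, and the GC correction Myh7 −0.041 and Ctnnb1 −0.023. Median-ratio scaling gave Myh7 −0.060, Myh6 −0.023, Acta1 −0.0042 and Ctnnb1 −0.032. A pseudocount of 0.1 gave Myh7 −7.87e-05. A Col1a1 limit of 50 FPKM gave Myh7 −0.016 and Ctnnb1 −0.090. All 6 against 6 gave Myh7 −0.59, Acta1 −0.40, Il1b −0.24, Ccl2 −0.13, Spp1 −0.71, Ctnnb1 −0.17 and Axin2 −0.083. The run as covariate, or the last run alone, gave Myh7 −0.48, Myh6 −0.13, Ankrd1 0.23, Ctnnb1 −0.0073, Fos 0.62 and Egr1 0.063. The replicate block, or leaving out MI 4 and MI 5, gave Ankrd1 0.10 and Fos 0.028.

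Leaving out 1 library gave ranges of −0.22 to 0.42 for Acta1, −0.25 to 0.18 for Ankrd1, −0.20 to 0.015 for Ccnd1, −0.068 to 0.080 for Ctnnb1, −0.51 to 0.23 for Egr1, −0.40 to 0.31 for Fos, −0.15 to 0.45 for Il1b, −0.32 to 0.35 for Myh6, −0.46 to 0.36 for Myh7, −0.68 to 0.18 for Nppa, −0.39 to 0.21 for Nr1d1 and −0.20 to 0.80 for Spp1. The causes were not tested. The main limits are 3 HXP libraries, the overlap of run and group, the choice of libraries by a measured value, and RNA of other tissues in MI 4 and MI 5.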

Other observations

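Lymphatic genes were looked at after the values of Ccl21 had been seen, because lymphatic vessels are a source of this chemokine. Mmrn1, which encodes a secreted glycoprotein used as a marker of lymphatic endothelium, was at 5.41, 12.6 and 8.91 FPKM in HXP 1, HXP 2 and HXP 3 and at 5.49, 5.31, 3.97, 3.52 and 3.17 FPKM in MI 1 to MI 5. The groups overlapped through HXP 1, the difference was 0.87 ± 0.25 (SE) on the log2(FPKM + 1) scale, and the limma test gave an unadjusted p of 0.0071 and an adjusted p of 1.00. Flt4, the gene of the receptor for VEGF-C, was at 4.46, 7.13 and 8.29 FPKM in HXP and at 3.94 to 5.60 FPKM in MI, with a difference of 0.35. Lyve1, a hyaluronan receptor gene also expressed by macrophages, had a difference of 0.33, and Pdpn, the podoplanin gene, one of 0.27. Prox1, the lymphatic master regulator that heart muscle also expresses, had one of −0.03. None was called.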
